A study of Mus musculus with 12 samples.

Results

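Mast cell and basophil genes were read in mouse ear skin as a set of 9 gene symbols out of 23234 listed in every library. The set was listed by gene name and not by a cut on measured level, though earlier results of these data were known. It holds the chymase genes Mcpt4 and Cma1, the tryptase gene Tpsb2, the carboxypeptidase gene Cpa3, the histamine-forming enzyme Hdc, the receptor genes Kit, Fcer1a and Ms4a2, and the basophil protease gene Mcpt8. All 9 symbols were found, and 8 of them passed the filter for testing (at least 1 FPKM, a fragment count corrected for transcript length and library size, in at least 3 of the 12 libraries). Mcpt8 did not pass.

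Ear skin RNA was sequenced in 12 libraries, 3 in each of 4 groups, from mice aged 8 to 12 weeks. The VDRcKO_Oxarol ears carried the label K5-Cre;VDR f/f, a genotype where the keratin 5 promoter, active in basal keratinocytes, drives the recombinase Cre against floxed alleles of the vitamin D receptor gene Vdr, and they received 100 mg of Oxarol ointment, whose active ingredient is the vitamin D3 analogue maxacalcitol. The WT_Oxarol ears were wild-type C57BL/6J ears given the same ointment, the WT_PBS ears were wild-type ears given phosphate-buffered saline, which is not the ointment base, and the WT_untreated ears were wild-type and received nothing. Treated ears were taken 1 day after application. The strain field of the VDRcKO_Oxarol libraries gives the genotype and no background strain, and no PBS or untreated ears of that genotype were analysed here.

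Mast cells are tissue-resident immune cells of the dermis that store proteases and histamine in granules bound to heparin and release them when IgE on their surface is crosslinked. Stem cell factor acting on the receptor Kit keeps them alive, and connective tissue mast cells of mouse skin are known for chymase Mcpt4, Cma1, tryptase and carboxypeptidase A3. Basophils are circulating relatives that share the IgE receptor and histamine synthesis with mast cells, lack most mast cell proteases and carry Mcpt8.

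Checks of the labels came first. The gene-level Vdr value was 23.6, 25.0 and 17.98 FPKM in the libraries labelled VDRcKO_Oxarol, against 7.87, 6.68 and 7.05 FPKM in WT_Oxarol, and since it covers the whole gene it does not check which part was deleted. Cyp24a1, the enzyme that breaks down active vitamin D and a target of the receptor, stood at 0, 0.271 and 0.175 FPKM in VDRcKO_Oxarol, against 66.2, 599 and 458 FPKM in WT_Oxarol. Depth was estimated from the steps between low values, relative to the deepest library (WT_PBS replicate 3). The estimate is rough, since 57.1 to 68.05% of the low values in a library lay within 0.15 of a whole step. It was 0.0409 to 0.0597 of that library in VDRcKO_Oxarol, 0.0646 to 0.213 in WT_Oxarol, 0.115 and 0.176 in the other WT_PBS libraries and 0.0904 to 0.129 in WT_untreated. The VDRcKO_Oxarol libraries were thus the shallowest, and the part of depth in the differences was not tested. The WT_untreated libraries differed by transcript length. Replicate 1 had a median log2 difference from the other untreated libraries of 0.08 over 936 genes under 2 kb and -0.13 over 120 genes above 5 kb. For replicate 3 these were -0.09 and 0.09. The Pearson correlation of log2 values was 0.955 between replicates 1 and 2, 0.931 between 1 and 3 and 0.947 between 2 and 3. Each median is relative to the other untreated libraries, so which of them is unusual cannot be told. The library codes in the labels run in 2 series, the first holding replicates 1 and 2 of the wild-type groups and the second holding their replicate 3 together with every VDRcKO_Oxarol library. The labels do not say what the series mean. Nothing in the labels ties each library to its own animal, and p-values therefore measure only how far these samples spread, which may be technical.

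The proteases dominated the set on the per-length FPKM scale. Cma1 averaged 132 FPKM over the 12 libraries, above 95.2% of the 14059 genes tested, followed by Cpa3 at 111 FPKM and Tpsb2 at 97.0 FPKM. Mcpt4 averaged 23.1 FPKM, Hdc 8.31 FPKM, Kit 5.69 FPKM, Ms4a2 5.602 FPKM, Fcer1a 1.45 FPKM and Mcpt8 0.217 FPKM. Ranges over the 12 libraries overlapped for Cma1 and Cpa3, for Cpa3 and Tpsb2, for Hdc and Kit, and for Kit and Ms4a2. Ranges pooled over the groups leave out that the genes share libraries. Within a library, Cpa3 relative to Cma1 was 0.626 to 1.02 in wild type and 1.05 to 1.26 in VDRcKO_Oxarol. The step down to Mcpt4 was wider than the spread, because its highest library (31.9 FPKM) lay below the lowest Tpsb2 library (68.3 FPKM). The keratinocyte genes Krt5 and Krt14 stood at 445 to 708 FPKM and 907 to 1837 FPKM, as fits a skin label.

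**Figure D1:**
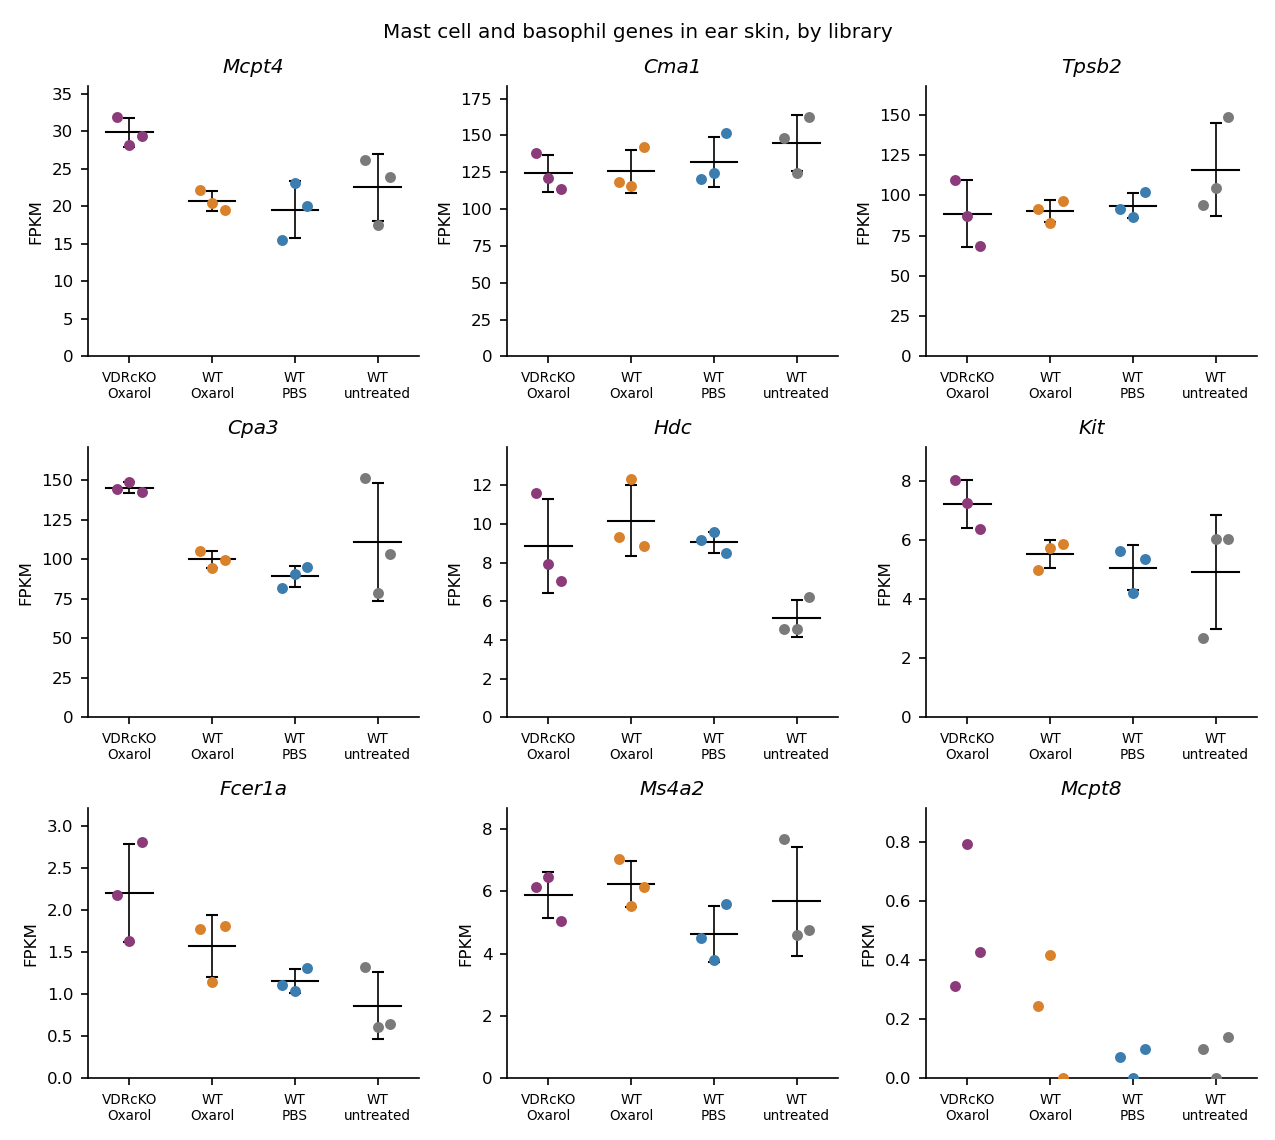
Level of each of the 9 genes (FPKM, vertical axes from 0) in each library of the 4 groups. Points are libraries, horizontal lines are group means and bars are SD (n = 3), left out for Mcpt8, which is listed at 0 in some libraries. The 3 VDRcKO_Oxarol points for Mcpt4 (28.2 to 31.9) and Kit (6.39 to 8.05) lie above all 9 wild-type points.

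The start regions of Cpa3, Mcpt4 and Cma1, which are compared below, are printed first. They are the 250 bases before the RefSeq transcription start in build GRCm38.p6. RefSeq promoter entries were matched for 8 of the 9 genes, and Tpsb2 is named only. Capitals mark AGATAA or TGATAA, forms of the site bound by GATA factors, which direct many mast cell genes.
Cpa3, chr3:20242182-20242431, minus strand: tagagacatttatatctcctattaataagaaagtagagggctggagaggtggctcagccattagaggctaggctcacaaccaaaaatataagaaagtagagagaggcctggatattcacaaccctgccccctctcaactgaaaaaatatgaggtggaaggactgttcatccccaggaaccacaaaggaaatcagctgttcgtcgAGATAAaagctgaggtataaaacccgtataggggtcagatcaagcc
Mcpt4, chr14:56062311-56062560, minus strand: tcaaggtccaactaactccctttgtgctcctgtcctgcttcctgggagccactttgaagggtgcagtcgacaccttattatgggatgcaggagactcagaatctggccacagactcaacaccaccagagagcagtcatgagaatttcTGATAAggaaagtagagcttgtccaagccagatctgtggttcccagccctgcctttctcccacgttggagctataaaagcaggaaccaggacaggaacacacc
Cma1, chr14:55944676-55944925, minus strand: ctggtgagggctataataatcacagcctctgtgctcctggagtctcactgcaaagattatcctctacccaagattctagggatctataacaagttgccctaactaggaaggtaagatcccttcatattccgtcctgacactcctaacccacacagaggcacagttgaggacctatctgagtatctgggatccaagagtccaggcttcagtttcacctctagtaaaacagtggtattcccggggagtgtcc
The Cpa3 match lies 46 bases before the start and the Mcpt4 match 103 bases before it, while the Cma1 window holds neither motif. On both strands, AGATAA was found in 9.99% and TGATAA in 7.94% of 32851 RefSeq promoters of the same length, so a match is common. Ms4a2 held AGATAA at 3 places (224, 37 and 11 bases before the start) and Fcer1a at 1 (92 bases). The windows of Hdc, Kit and Mcpt8 held neither. CATGTG, an E-box bound by the mast cell factor Mitf, was found in the Fcer1a window (208 bases before the start) and in 12.3% of promoters, and CACGTG in none of the members and 6.02% of promoters. A pair of AGGTCA half-sites spaced by 3 bases, the classical vitamin D receptor element, was found in none of the members and in 2 promoters. A match of letters is a description and shows no binding.

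Among the chymases, Mcpt4 was higher in VDRcKO_Oxarol ears than in any wild-type ear, while Cma1 was not. Mcpt4, a chymotrypsin-like enzyme of connective tissue mast cells, stood at 31.9, 28.2 and 29.3 FPKM in VDRcKO_Oxarol, against 22.2, 20.5 and 19.4 FPKM in WT_Oxarol. It stood at 15.5, 23.1 and 19.98 FPKM in WT_PBS and 26.2, 17.5 and 23.9 FPKM in WT_untreated. The VDRcKO_Oxarol libraries did not overlap any wild-type library. The difference in log2(FPKM + 1) from WT_Oxarol was 0.51 ± 0.16 (SE, n = 3 each), which missed the threshold (limma, adjusted p = 0.0586), and that from WT_PBS was 0.60 ± 0.16, which passed it (limma, adjusted p = 0.0304). Against WT_untreated it was 0.41 ± 0.16 (limma, adjusted p = 0.0940). Within the second code series the wild-type values were 19.4, 19.98 and 23.9 FPKM, all below the VDRcKO_Oxarol values. The call over WT_PBS was lost with that series as a term (0.58, adjusted p = 0.113), with median-of-ratios scaling (0.51, adjusted p = 0.0594) and when WT_PBS replicate 1 or 3 or any VDRcKO_Oxarol library was left out. Without WT_untreated replicate 1, or without replicate 2, the difference from WT_Oxarol passed the threshold (0.51, adjusted p = 0.0345 and 0.0383).

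Cma1, a second chymase stored in the same granules, stood at 138, 121 and 113 FPKM in VDRcKO_Oxarol, against 118, 116 and 142 FPKM in WT_Oxarol. WT_PBS held 120, 124 and 152 FPKM and WT_untreated 148, 124 and 162 FPKM. All 4 groups overlapped, and Cma1 had the smallest relative spread of the tested members over the 12 libraries, a coefficient of variation of 12.3%. The difference between VDRcKO_Oxarol and WT_Oxarol was -0.01 with a 95% interval of -0.31 to 0.28 (limma). Within the second code series the 3 wild-type libraries (142, 152 and 162 FPKM) all lay above the VDRcKO_Oxarol libraries, and with the series as a term the difference from WT_untreated was -0.41 ± 0.11 (limma, adjusted p = 0.0480), against -0.22 without it.

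The carboxypeptidase Cpa3, a granule enzyme that trims peptides after chymase has cut them, had its highest group mean in VDRcKO_Oxarol, like Mcpt4. It stood at 145, 149 and 142 FPKM in VDRcKO_Oxarol, against 105, 94.4 and 99.7 FPKM in WT_Oxarol and 81.8, 90.5 and 95.05 FPKM in WT_PBS. WT_untreated held 152, 78.4 and 103 FPKM, the widest spread of any group for this gene, with replicate 1 above every other library. Cpa3 thus overlapped between VDRcKO_Oxarol and WT_untreated only through that library. It rose by 0.70 ± 0.18 over WT_PBS (limma, adjusted p = 0.0295). Over WT_Oxarol the difference of 0.54 ± 0.18 missed the threshold (limma, adjusted p = 0.0741), as did 0.44 ± 0.18 over WT_untreated (limma, adjusted p = 0.114). Without WT_untreated replicate 1 those values were 0.54 (adjusted p = 0.00673) and 0.69 (adjusted p = 0.00659). Within the second code series the wild-type values were 99.7, 95.05 and 103 FPKM. The call over WT_PBS was lost with that series as a term (0.69, adjusted p = 0.107), with median-of-ratios scaling (0.60, adjusted p = 0.0530) and when WT_PBS replicate 1 or 2 or any VDRcKO_Oxarol library was left out.

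Tpsb2, the tryptase that forms tetramers on heparin, showed no such separation. It stood at 109.7, 87.4 and 68.3 FPKM in VDRcKO_Oxarol, against 91.7, 83.0 and 96.4 FPKM in WT_Oxarol. WT_PBS held 91.8, 86.7 and 102 FPKM and WT_untreated 94.1, 105 and 149 FPKM. The groups overlapped, with the lowest library in VDRcKO_Oxarol and the highest in WT_untreated. The difference between VDRcKO_Oxarol and WT_Oxarol was -0.05 with a 95% interval of -0.47 to 0.36 (limma). Tpsb2 and its minor partner Tpsab1 are related tryptase genes. Whether the authors' counting split reads between them was not tested, which leaves both values uncertain.

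Ratios within a library, computed after these values had been seen, set the proteases beside each other free of depth and of scaling. Mcpt4 relative to Cma1 was 0.232, 0.233 and 0.259 in VDRcKO_Oxarol, against 0.187, 0.177 and 0.136 in WT_Oxarol and 0.129 to 0.187 over the 9 wild-type libraries. Cpa3 relative to Cma1 was 1.05, 1.23 and 1.26 in VDRcKO_Oxarol, against 0.890, 0.815 and 0.700 in WT_Oxarol and 0.626 to 1.02 over the wild-type libraries. Both ratios separated VDRcKO_Oxarol from all 9 wild-type libraries, and so did Mcpt4 relative to Tpsb2 (0.291 to 0.429 in VDRcKO_Oxarol, 0.161 to 0.278 in wild type). Cpa3 relative to Tpsb2 overlapped (1.32 to 2.08 in VDRcKO_Oxarol, 0.694 to 1.61 in wild type). Tpsb2 relative to Cma1 overlapped too (0.603 to 0.796 in VDRcKO_Oxarol, 0.635 to 0.915 in wild type), and so did Cpa3 relative to Mcpt4 (4.53 to 5.27 in VDRcKO_Oxarol, 3.92 to 5.79 in wild type). In a two-sided exact permutation test of VDRcKO_Oxarol against WT_Oxarol, Mcpt4 and Cpa3, each relative to Cma1 and to Tpsb2, gave p = 0.1, the smallest that 3 against 3 libraries allow, and 0.15 after Benjamini-Hochberg adjustment over 6 ratios. The 2 other ratios gave 0.9 after adjustment. A ratio shows unequal change between the 2 genes in it and not which of them changed.

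**Figure D2:**
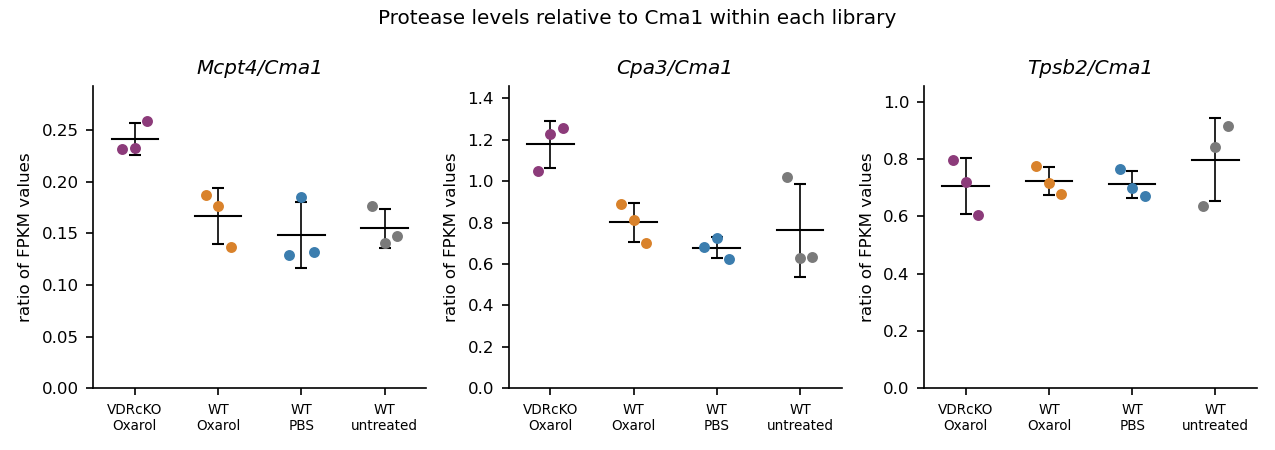
Ratio of the FPKM value of Mcpt4, Cpa3 or Tpsb2 to that of Cma1 in the same library (vertical axes from 0), by group. Points are libraries, lines are means and bars are SD (n = 3). For Mcpt4 and Cpa3 the VDRcKO_Oxarol points (0.232 to 0.259 and 1.05 to 1.26) lie above all wild-type points, and for Tpsb2 the groups overlap.

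Hdc, which makes histamine from histidine, was lowest in untreated ears. It stood at 11.6, 7.95 and 7.05 FPKM in VDRcKO_Oxarol, 9.35, 12.3 and 8.89 FPKM in WT_Oxarol and 9.15, 9.56 and 8.48 FPKM in WT_PBS, against 4.59, 4.57 and 6.22 FPKM in WT_untreated. Every library of the 3 other groups lay above every untreated library. Hdc rose in WT_Oxarol by 0.87 ± 0.18 over WT_untreated (limma, adjusted p = 0.0466), and in VDRcKO_Oxarol by 0.67 ± 0.18 over WT_untreated (limma, adjusted p = 0.0283). WT_PBS differed from WT_untreated by 0.73 ± 0.18, which missed the threshold (limma, adjusted p = 0.430), in a comparison where 1 gene in all passed and 1312 had an unadjusted p under 0.05. WT_Oxarol and WT_PBS differed by 0.14, with a 95% interval of -0.25 to 0.53. All comparisons with WT_untreated share its 3 libraries. In the first code series alone the difference between WT_Oxarol and WT_untreated was 1.07 (adjusted p = 0.175), and in the second series the single libraries stood at 8.89 and 6.22 FPKM. The call over WT_untreated in WT_Oxarol was lost when any 1 of 11 of the 12 libraries was left out (adjusted p up to 0.185), and over all 20 alternatives the difference ranged from 0.73 to 1.07. The VDRcKO_Oxarol call was lost without WT_untreated replicate 1 or 2 or VDRcKO_Oxarol replicate 1 or 2 (0.48 to 0.73, adjusted p = 0.0581 to 0.0816). It was also lost with the code series as a term (0.67, adjusted p = 0.0827), with quantile normalization (0.5004, adjusted p = 0.0635) and in the fit of those 2 groups (0.67, adjusted p = 0.104).

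Kit, the receptor for stem cell factor, stood at 8.05, 7.25 and 6.39 FPKM in VDRcKO_Oxarol, against 4.997, 5.73 and 5.87 FPKM in WT_Oxarol. WT_PBS held 5.63, 4.22 and 5.37 FPKM and WT_untreated 2.69, 6.03 and 6.04 FPKM. The VDRcKO_Oxarol libraries lay above all 9 wild-type libraries, and the wild-type groups overlapped. No comparison of Kit passed the threshold, and the difference between VDRcKO_Oxarol and WT_Oxarol was 0.33 ± 0.22 (limma, adjusted p = 0.323). Within the second code series the wild-type values reached 6.04 FPKM against a lowest VDRcKO_Oxarol value of 6.39 FPKM. The low value of 2.69 FPKM belongs to WT_untreated replicate 1, in which long transcripts read low against the other untreated libraries. The longest Kit transcript spans 5241 bases, and the part of length in the Kit value was not tested. Without that library the difference between VDRcKO_Oxarol and WT_PBS was 0.44 (limma, adjusted p = 0.0201), against an adjusted p of 0.186 with it. Melanocytes also carry Kit, and the summed level of 8 listed melanocyte genes was 44.6 to 46.7 FPKM in VDRcKO_Oxarol, against 47.1 to 58.5 FPKM in WT_Oxarol, with 1 of 6 tested lower and 0 higher. The lower gene was Mlana, at 13.9 ± 3.39 FPKM in VDRcKO_Oxarol and 27.5 ± 4.95 FPKM in WT_Oxarol (SD, n = 3 each), while the median difference of the 6 was 0.16 and Sox10 stood at 1.86 ± 0.172 FPKM in VDRcKO_Oxarol and 0.981 ± 0.349 FPKM in WT_Oxarol (SD, n = 3 each; limma, adjusted p = 0.0539). The part of melanocytes in the Kit value was not tested.

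The IgE receptor chains were low. Fcer1a, the chain that binds IgE, stood at 2.17, 1.63 and 2.80 FPKM in VDRcKO_Oxarol, 1.77, 1.15 and 1.81 FPKM in WT_Oxarol and 1.11, 1.04 and 1.31 FPKM in WT_PBS, against 1.32, 0.611 and 0.649 FPKM in WT_untreated. VDRcKO_Oxarol did not overlap WT_PBS or WT_untreated and did overlap WT_Oxarol. Fcer1a rose in VDRcKO_Oxarol by 0.79 ± 0.18 over WT_untreated (limma, adjusted p = 0.0166). The difference of 0.56 ± 0.18 from WT_PBS missed the threshold (limma, adjusted p = 0.0570), as did 0.31 ± 0.18 from WT_Oxarol (limma, adjusted p = 0.257). These levels rest on an estimated 6 to 143 fragments a library, the fewest of the tested members, with 143 in the deepest library (WT_PBS replicate 3). The call over WT_untreated rests on an estimated 10, 9 and 18 fragments in VDRcKO_Oxarol and 18, 9 and 6 in WT_untreated. In the second code series the wild-type libraries stood at 1.81, 1.31 and 0.649 FPKM, and with the series as a term the call over WT_untreated was lost (0.76, adjusted p = 0.0603). It was also lost without VDRcKO_Oxarol replicate 3 (0.66, adjusted p = 0.0537) and in the fit of those 2 groups (0.79, adjusted p = 0.0780).

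Ms4a2, the signal-amplifying beta chain of the same receptor, stood at 6.15, 6.45 and 5.04 FPKM in VDRcKO_Oxarol, against 7.02, 5.53 and 6.14 FPKM in WT_Oxarol. WT_PBS held 4.49, 3.79 and 5.597 FPKM and WT_untreated 7.68, 4.60 and 4.74 FPKM. VDRcKO_Oxarol overlapped every wild-type group. Its differences were all short of the threshold, the one between WT_Oxarol and WT_PBS being 0.37 ± 0.18 (limma, adjusted p = 0.742). Whether the 2 chains of the receptor differed in pattern was not tested.

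Mcpt8, the basophil granule protease, was near the limit of detection. It was listed at 0.312, 0.791 and 0.426 FPKM in VDRcKO_Oxarol, 0.245, 0.416 and 0 FPKM in WT_Oxarol, 0.0720, 0 and 0.101 FPKM in WT_PBS and 0.1005, 0 and 0.140 FPKM in WT_untreated. With the value of 1 fragment taken from the lowest of these libraries after scaling by estimated depth, the values were whole multiples of it to within 0.0697, and correspond to an estimated 1, 3 and 2 fragments in VDRcKO_Oxarol, 3, 7 and 0 in WT_Oxarol, 1, 0 and 8 in WT_PBS and 1, 0 and 1 in WT_untreated. The 27 fragments in all carry no firm order of groups. With no filter on low values the difference between VDRcKO_Oxarol and WT_PBS was 0.50 (limma, adjusted p = 0.0485), resting on 6 and 9 fragments. The other basophil protease Prss34 was at 0 to 0.967 FPKM in all libraries.

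Read by comparison, 0 of the 8 tested members passed between WT_Oxarol and WT_PBS, where 0.306% of all genes passed with limma and 1047 genes had an unadjusted p under 0.05. None of the 8 had an unadjusted p under 0.05 there, the smallest being 0.0691 for Ms4a2. Between WT_Oxarol and WT_untreated 1 of 8 passed (Hdc), against 1.31% of all genes. Between WT_PBS and WT_untreated 0 of 8 passed, against 0.00711%. Between VDRcKO_Oxarol and WT_Oxarol 0 of 8 passed, against 13.1% of all genes, and 3 of 8 (Mcpt4, Cpa3 and Kit) were higher without overlap, against 27.9%. Between VDRcKO_Oxarol and WT_PBS 2 of 8 passed (Cpa3 and Mcpt4), against 16.3%, and 4 were higher without overlap, against 31%. Between VDRcKO_Oxarol and WT_untreated 2 of 8 passed (Fcer1a and Hdc), against 19%, and 4 were higher without overlap, against 24.4%. Counts over only 8 genes are too small to set firmly apart from the shares of all genes, and they are not read as a result about the set. The median difference of the 8 members from WT_Oxarol was 0.15, against 0.08 over all genes tested. In whole skin, fewer cells of a type and less RNA per cell cannot be told apart.

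**Figure D3:**
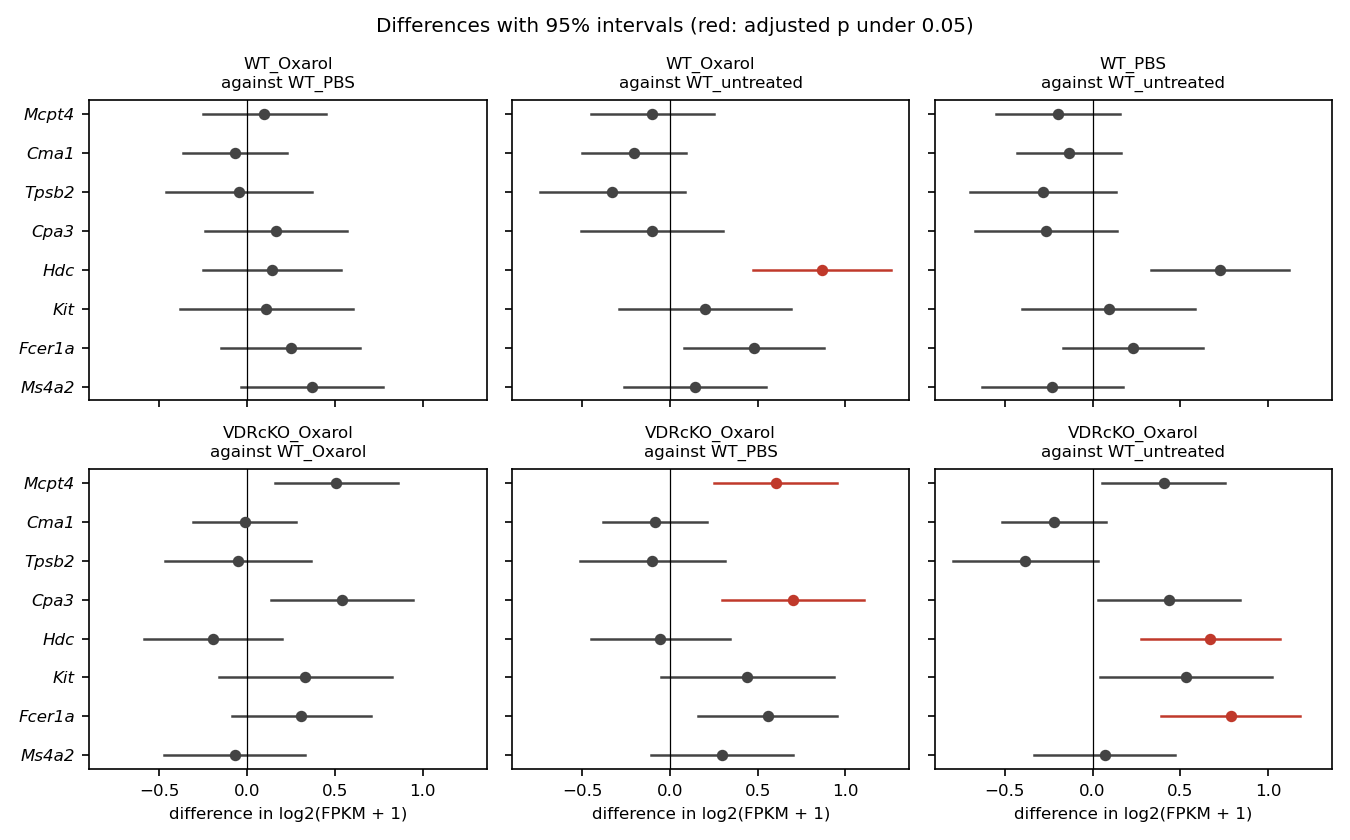
Difference in log2(FPKM + 1) for the 8 tested genes in the 6 comparisons (horizontal axis, first-named group minus second), with 95% limma intervals. Red marks an adjusted p under 0.05: Hdc for WT_Oxarol against WT_untreated, Mcpt4 and Cpa3 for VDRcKO_Oxarol against WT_PBS, and Hdc and Fcer1a for VDRcKO_Oxarol against WT_untreated. All other intervals are dark grey.

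The neighbouring genes of the pathway were taken from lists of 58 further symbols, of which 43 were tested. In the comparison of WT_Oxarol with WT_PBS 1 rose and 0 fell, and with WT_untreated 1 rose and 0 fell. In VDRcKO_Oxarol 7 rose and 2 fell against WT_Oxarol, 12 rose and 1 fell against WT_PBS, and 18 rose and 0 fell against WT_untreated. These 3 comparisons share the VDRcKO_Oxarol libraries. With the code series as a term 1 rose (Cebpa) and 1 fell (Tslp) against WT_Oxarol, 2 rose against WT_PBS (Cebpa and Runx1) and 6 against WT_untreated (Cebpa, Crlf2, Il1rl1, Inpp5d, Runx1 and Srgn). Without WT_untreated replicate 1, 13 rose and 3 fell against WT_Oxarol, 19 rose and 1 fell against WT_PBS and 13 rose against WT_untreated. Both settings were added for these lists after seeing the data. For all genes tested, the shares that rose in the fit as reported were 8.71%, 10.8% and 12.8%, and those that fell 4.43%, 5.49% and 6.2%. Counts over all genes also moved under the alternatives. Against WT_Oxarol they were 322 to 3433 with 1 library left out and 283 to 2547 otherwise, against 1848 as reported. The moves of the list counts between fits are therefore not read as a result about the lists.

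Among receptors, Il1rl1, the receptor for the alarmin interleukin 33 on mast cells, stood at 3.51, 5.63 and 6.49 FPKM in VDRcKO_Oxarol, 3.37, 3.17 and 5.15 FPKM in WT_Oxarol and 1.91, 2.05 and 2.37 FPKM in WT_PBS, against 0.753, 0.546 and 1.12 FPKM in WT_untreated. The untreated ears were lowest without overlap, as for Hdc. Il1rl1 rose by 1.43 ± 0.21 in WT_Oxarol over WT_untreated (limma, adjusted p = 0.0125) and by 1.76 ± 0.21 in VDRcKO_Oxarol (limma, adjusted p = 0.00183), while VDRcKO_Oxarol and WT_Oxarol overlapped (0.33 ± 0.21, adjusted p = 0.289). Crlf2, a chain of the receptor for the epithelial cytokine Tslp, stood at 4.59, 5.48 and 5.43 FPKM in VDRcKO_Oxarol, against 3.28, 2.98 and 2.42 FPKM in WT_Oxarol, and rose by 0.67 ± 0.15 (limma, adjusted p = 0.0206). Fcer1g, the signalling chain that the IgE receptor shares with other Fc receptors of myeloid cells, rose by 0.57 ± 0.15 over WT_PBS (limma, adjusted p = 0.0284), to 166 ± 17.5 FPKM in VDRcKO_Oxarol against 111 ± 9.16 FPKM in WT_PBS (SD, n = 3 each). Il3ra, the interleukin 3 receptor chain that basophils depend on, rose by 0.64 ± 0.19 over both WT_PBS and WT_untreated (limma, adjusted p = 0.0426 and 0.0384). The mast cell receptors Mrgprb1 and Mrgprb2, which sense cationic peptides, passed in no comparison. Mrgprb2 stood at 4.62 ± 0.227 FPKM in VDRcKO_Oxarol and 4.79 ± 0.578 FPKM in WT_Oxarol (SD, n = 3 each).

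Of the growth factors, Tslp stood at 4.90, 7.38 and 6.98 FPKM in VDRcKO_Oxarol, against 9.65, 19.3 and 24.3 FPKM in WT_Oxarol. It was lower by 1.26 ± 0.28 on the log2 scale (limma, adjusted p = 0.0212). In wild type, Tslp rose by 1.65 ± 0.28 in WT_Oxarol over WT_PBS (limma, adjusted p = 0.0440, and 0.0559 without WT_untreated replicate 1). Tslp in VDRcKO_Oxarol did not differ beyond the threshold from WT_PBS (0.38, limma, adjusted p = 0.359) or WT_untreated (0.03, limma, adjusted p = 0.949). Kitl, which encodes stem cell factor, stood at 10.49 to 12.3 FPKM in VDRcKO_Oxarol, 10.51 to 13.0 FPKM in WT_Oxarol, 9.32 to 10.4 FPKM in WT_PBS and 10.1 to 12.03 FPKM in WT_untreated. WT_PBS lay below both ointment groups without overlap, and Kitl passed in no comparison. Il3 was listed at 0 in every library. In the granule list, Srgn, the proteoglycan core that holds proteases, rose by 0.54 ± 0.15 over WT_PBS (limma, adjusted p = 0.0339) and by 0.92 ± 0.15 over WT_untreated (limma, adjusted p = 0.00477). Ndst2, an enzyme that sulfates the heparin chains to which the granule proteases bind, stood at 4.56, 5.17 and 6.92 FPKM in VDRcKO_Oxarol, against 2.27, 2.56 and 4.22 FPKM in WT_Oxarol, and rose by 0.72 ± 0.20 (limma, adjusted p = 0.0415). Slc18a2, which loads histamine into granules, stood at 5.22 ± 0.162 FPKM in VDRcKO_Oxarol and 5.16 ± 0.568 FPKM in WT_Oxarol (SD, n = 3 each). Rab27b, a GTPase of granule release, was lower by 0.52 on the log2 scale than in WT_Oxarol (limma, adjusted p = 0.0302). It did not differ beyond the threshold from WT_PBS (-0.16, limma, adjusted p = 0.421) or WT_untreated (0.02, limma, adjusted p = 0.936). WT_Oxarol itself stood above WT_PBS by 0.37 (limma, adjusted p = 0.467) and above WT_untreated by 0.54 (limma, adjusted p = 0.0803).

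Of the minor tryptases, Tpsg1, which is membrane-anchored, stood at 1.76, 2.32 and 2.54 FPKM in VDRcKO_Oxarol, against 1.44, 1.38 and 0.977 FPKM in WT_Oxarol, and rose by 0.50 ± 0.14 (limma, adjusted p = 0.0437). Tpsab1 stood at 1.56, 2.45 and 2.59 FPKM in VDRcKO_Oxarol, against 4.20, 3.52 and 4.55 FPKM in WT_PBS, and fell by 0.68 on the log2 scale (limma, adjusted p = 0.0364), but VDRcKO_Oxarol overlapped WT_untreated (3.30, 1.77 and 2.50 FPKM). Mcpt1 and Mcpt2, chymases of mucosal mast cells, were at 0.241 FPKM or below in every library. Of the lineage factors, Cebpa, which in mouse progenitors favours basophils over mast cells, rose by 1.01 ± 0.16 against WT_Oxarol (limma, adjusted p = 0.00765), and Runx1, a factor of blood cell formation, by 0.53 ± 0.12 (limma, adjusted p = 0.0244). Mitf, a factor that mast cells share with melanocytes, rose by 0.37 ± 0.11 against WT_Oxarol (limma, adjusted p = 0.0460) and did not differ beyond the threshold from WT_untreated (0.08, adjusted p = 0.620). Gata2 passed in no comparison. In the IgE receptor signalling list 1 of 11 genes rose against WT_Oxarol (Gab2, an adaptor, 0.46 ± 0.13, limma, adjusted p = 0.0481), where 8.71% of all genes rose. Against WT_PBS 4 of 11 rose, beside 10.8% of all genes, and against WT_untreated 8 of 11, beside 12.8%. The 4 of smallest p against WT_untreated were the phosphatase Inpp5d (1.07), the adaptors Lcp2 (0.73) and Gab2 (0.59) and the kinase Btk (0.53). Over WT_PBS the genes that rose were Lcp2, Btk, Lat2 and Syk, by 0.80, 0.46, 0.38 and 0.64. WT_untreated replicate 1 was low for Inpp5d (0.941 FPKM, against 2.59 and 2.54 FPKM in the other untreated libraries), Gab2 (0.937 FPKM against 1.79 and 1.57 FPKM) and Plcg1 (3.52 FPKM against 8.89 and 7.47 FPKM). Without that library 6 of the 11 genes rose against WT_untreated, 9 against WT_PBS and 4 against WT_Oxarol. With the code series as a term 1 rose against WT_untreated (Inpp5d) and 0 against WT_PBS or WT_Oxarol. Counts over all genes also varied between such fits, and these moves are not read as a result about the signalling list. Alox5ap, which presents arachidonic acid for leukotriene synthesis, rose by 0.55 ± 0.16 over WT_untreated (limma, adjusted p = 0.0374), beside Hdc in the list of mediator genes.

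**Figure D4:**
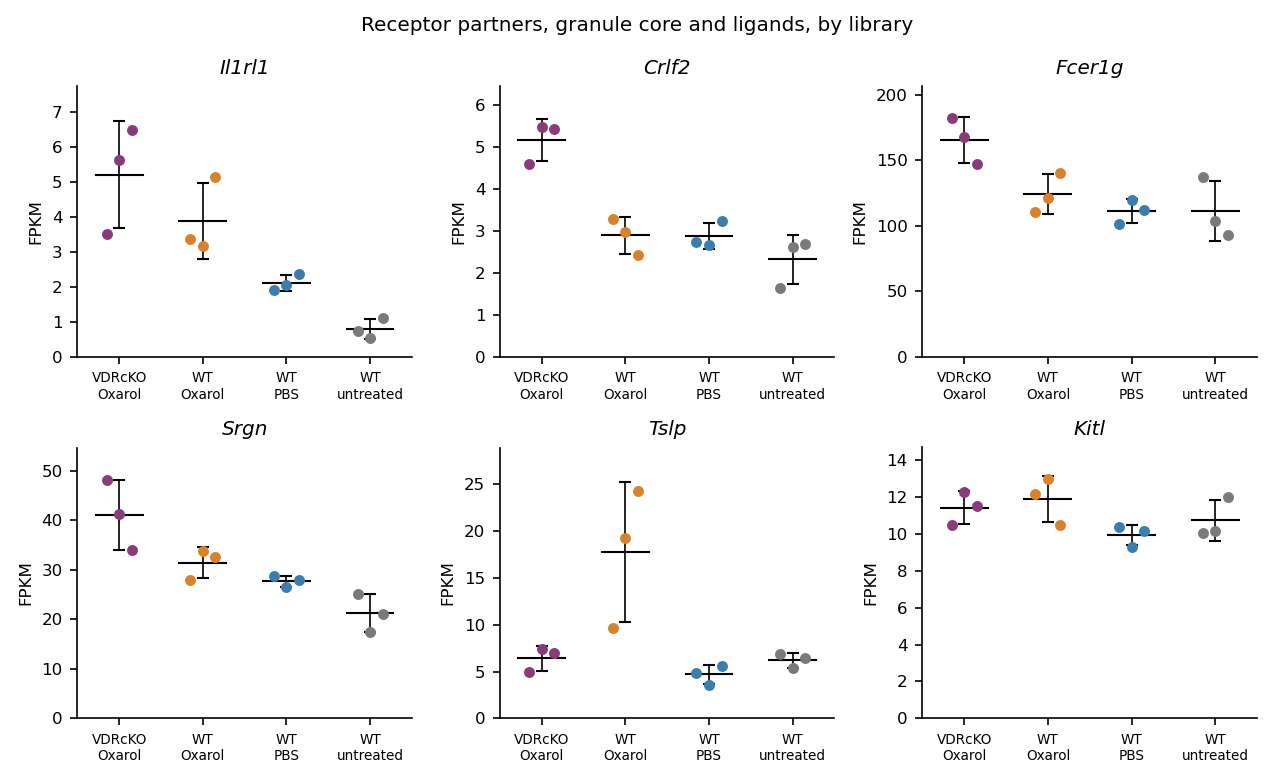
Level (FPKM, vertical axes from 0) of 6 pathway genes outside the set in each library. Points are libraries, lines are means and bars are SD (n = 3). Il1rl1 is lowest in WT_untreated (0.546 to 1.12), Crlf2 is highest in VDRcKO_Oxarol (4.59 to 5.48), Tslp is highest in WT_Oxarol (9.65 to 24.3), and Kitl lies between 9.32 and 13.0 in all libraries.

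Many of the listed partners are also active in other cells, and the markers of some other cell types moved with VDRcKO_Oxarol while others did not. For 6 Langerhans and dendritic cell genes the sum was 2844 to 3596 FPKM in VDRcKO_Oxarol and 3039 to 3558 FPKM in WT_Oxarol. Of these, 0 were higher and 0 lower against WT_Oxarol. The 6 basal and suprabasal keratinocyte genes also had 0 higher and 0 lower. Of all genes tested, 8.71% were higher and 4.43% lower in VDRcKO_Oxarol against WT_Oxarol, and 10.8% were higher against WT_PBS. The summed level of 9 macrophage genes was 836 to 1093 FPKM in VDRcKO_Oxarol, against 486 to 633 FPKM in WT_Oxarol, with 7 of 9 tested genes higher. For 8 fibroblast genes it was 3137 to 3846 FPKM in VDRcKO_Oxarol against 2046 to 2697 FPKM in WT_Oxarol, with 5 of 8 higher, and for 17 hair follicle genes 317 to 1396 FPKM against 7.45 to 68.1 FPKM, with 15 of 17 higher. The sum of 6 T cell genes was 51.0 to 62.0 FPKM in VDRcKO_Oxarol against 35.2 to 40.7 FPKM in WT_Oxarol, with 2 of 6 higher, and T cells also use Lat and Lcp2 of the signalling list. For 7 cartilage genes the sum was 143 to 151 FPKM in VDRcKO_Oxarol against 61.0 to 96.1 FPKM in WT_Oxarol, with 5 of 6 tested higher. The part of these cells in the Mcpt4, Cpa3, Fcer1g, Crlf2, Srgn, Cebpa and signalling values was not tested. The summed level of 10 mast cell markers overlapped, at 384 to 462 FPKM in VDRcKO_Oxarol and 351 to 389 FPKM in WT_Oxarol, with 0 of 10 called. That of 5 basophil markers was 9.84 to 12.3 FPKM in VDRcKO_Oxarol and 10.6 to 11.5 FPKM in WT_Oxarol, with 0 of 3 tested called. These 5 are Mcpt8, Prss34, Cd200r3 and the receptor chains Fcer1a and Ms4a2, which mast cells share. The proteases Mcpt8 and Prss34 were too low to be tested. Both marker lists hold members of the set, so their sums are no separate check and no measure of basophils alone. Of the neutrophil granule genes, Elane reached 0.496 FPKM, Ngp 0.142 FPKM and Camp 3.01 FPKM. The summed level of 8 neutrophil genes was 15.9 to 17.6 FPKM in VDRcKO_Oxarol and 15.1 to 19.7 FPKM in WT_Oxarol. It was 13.8 to 14.8 FPKM in WT_PBS and 11.9 to 12.6 FPKM in WT_untreated, lowest without overlap in untreated ears. In VDRcKO_Oxarol 0 of 3 tested neutrophil genes were called against WT_Oxarol, and 1 of 3 was higher against WT_PBS and 1 of 3 against WT_untreated. The summed level of 8 eosinophil genes was 9.02 to 12.7 FPKM in VDRcKO_Oxarol, 7.07 to 9.93 FPKM in WT_Oxarol and 3.599 to 5.91 FPKM in WT_PBS. There 0 of 3 tested genes were called against WT_Oxarol and 2 of 3 were higher against WT_PBS, among them Ear2 at 7.42 ± 1.58 FPKM in VDRcKO_Oxarol and 2.47 ± 1.07 FPKM in WT_PBS (SD, n = 3 each), while Epx, the granule peroxidase of eosinophils, was at 0 in 11 of 12 libraries.

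The genes most like the 4 granule proteases were sought by the Pearson correlation, over the 12 libraries, of log2(FPKM + 1) with the mean standardised level of Mcpt4, Cma1, Tpsb2 and Cpa3. The 5 closest of the other tested genes were Dram2 (0.893), Hars2 (0.891), Folr2 (0.859), AW112010 (0.859) and Wwp1 (0.857). They were picked as the highest out of all tested genes outside the set. How high such a maximum runs by chance was not tested. With the group means removed, the correlations of these 5 genes were 0.913, 0.833, 0.866, 0.793 and 0.833, in the same libraries and so no separate check. The same measure was 0.427 for Ms4a2, 0.140 for Fcer1a, 0.0319 for Kit and -0.220 for Hdc, and with the group means removed 0.485, 0.252, -0.134 and 0.381. Members of the set were not candidates in the search for the closest genes. The libraries share depth and dissection, and the correlations describe these 12 libraries only.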

How the data were processed

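The authors deposited 1 table per library with a gene symbol and 1 value for each of 23234 symbols, taken here as FPKM. The file headers print no unit, and it was inferred from Cufflinks and the range of the values. TopHat2 2.0.8, Bowtie2 2.1.0 and Cufflinks 2.1.1 with build mm9 are named per the submitters' processing notes, and the sources used here give neither their settings nor the strandedness, so overlapping genes cannot be told apart. Libraries were prepared with the NEBNext Ultra RNA kit, per the labels' protocols.

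Values were tested as log2(FPKM + 1), which understates changes of low genes, with limma 3.58.1 in R 4.3.3. A gene entered when 3 or more of the 12 libraries held 1 FPKM or more (14059 genes), in 1 fit of 4 group means with a variance trend and Benjamini-Hochberg adjustment over all genes tested at 0.05. Errors are standard errors unless named SD. The fit was tested on simulated data. Fragment numbers were estimated from the steps of low values times transcript length (Python 3.11.15, GENCODE lengths of another build), a method also tested on simulated data, and they cover counting error only. Figures were drawn with matplotlib 3.10.9, and ratio tests used scipy 1.17.1.

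The members and lists were chosen with earlier results of these data known. Named are all members, list genes with an adjusted p under 0.05 (the 4 of smallest p where a list has more), further genes of these lists that frame them, chosen with their values known, Vdr, Cyp24a1 and the 5 genes most like the proteases. The protease ratios were added after seeing the data. RefSeq promoters are of build GRCm38.p6, so their coordinates are not those of mm9. Alternatives were each library left out, the library code as a term, its first series by itself, a fit of the 2 groups compared, scaling by median-of-ratios, quantile normalization, a pseudocount of 0.1, and a low-value filter of 5 FPKM or none.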

Additional observations from a re-analysis of the deposited data

How the results depend on the processing

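No paired analysis was possible because the labels give no replicate numbers, and those used here only name libraries in accession order. The count of members called between WT_Oxarol and WT_untreated was 0 with no filter, in the fit of those 2 groups, with the code series as a term and in the first series alone. Between VDRcKO_Oxarol and WT_Oxarol it was 1 with quantile normalization and 2 in the fit of those 2 groups. Against WT_PBS it was 0 with median-of-ratios scaling, 4 in the fit of those 2 groups and 0 with the series term, and against WT_untreated it was 1 with the filter of 5 FPKM, which removes Fcer1a, 1 with quantile normalization, 0 in the fit of those 2 groups and 1 with the series term, where Fcer1a and Hdc were lost and the call was a lower Cma1. The causes of the other moves were not tested. Leaving out 1 library gave 0 to 1 members called for WT_Oxarol against WT_untreated, 0 to 2 for VDRcKO_Oxarol against WT_Oxarol, 0 to 4 against WT_PBS and 1 to 2 against WT_untreated, and 0 for the 2 remaining comparisons, which also stayed at 0 under the other alternatives. Counts over all genes with 1 library left out were 322 to 3433 for VDRcKO_Oxarol against WT_Oxarol, 543 to 3875 against WT_PBS and 1168 to 2896 against WT_untreated, and 283 to 2547, 611 to 3737 and 435 to 3085 under the other alternatives (1848, 2286 and 2668 as reported). For WT_Oxarol against WT_PBS, WT_Oxarol against WT_untreated and WT_PBS against WT_untreated they were 13 to 132, 34 to 254 and 1 to 6 with 1 library left out, and 0 to 44, 12 to 253 and 1 to 13 otherwise (43, 184 and 1 as reported). Quantile normalization moved the median difference of all genes between VDRcKO_Oxarol and WT_Oxarol to -0.04, against 0.08 as deposited.

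Directions reversed only among differences that were not called. Ms4a2 in VDRcKO_Oxarol against WT_untreated was -0.11 with quantile normalization and -0.00386 with median-of-ratios scaling. With 1 library left out, the differences that reversed in some case ranged as follows. In WT_Oxarol against WT_untreated, Cpa3 ranged from -0.32 to 0.15, Kit from -0.11 to 0.36 and Mcpt4 from -0.26 to 0.013, and Kit ranged from -0.22 to 0.25 in WT_PBS against WT_untreated, all 4 reversing without WT_untreated replicate 1. In WT_Oxarol against WT_PBS, Mcpt4 ranged from -0.052 to 0.22, Cma1 from -0.16 to 0.033 and Tpsb2 from -0.098 to 0.017. In VDRcKO_Oxarol against WT_Oxarol, Cma1 ranged from -0.091 to 0.079, Ms4a2 from -0.14 to 0.018 and Tpsb2 from -0.22 to 0.12. Against WT_PBS, Cma1 ranged from -0.16 to 0.018, Hdc from -0.24 to 0.079 and Tpsb2 from -0.27 to 0.071, and against WT_untreated Ms4a2 ranged from -0.043 to 0.27. Depth limits Mcpt8 and Fcer1a most, and 3 libraries a group limit every comparison.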
